A study of Mus musculus with 10 samples.

Results

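The Lpl Pdpn Mmp12 macrophages were a small group of tumor barcodes in which transcripts of Lpl (lipoprotein lipase, which releases fatty acids from lipoproteins), Mmp12 (macrophage metalloelastase, a protease that cuts elastin), Pdpn (podoplanin, a surface mucin), Spp1 (osteopontin, a secreted ligand of integrins and CD44) and Bhlhe41 (a transcriptional repressor) outnumbered those of resident-type macrophage genes. A barcode stands for a droplet and a UMI for a counted transcript. The members were chosen on these measured values: each barcode had 200 to 7000 detected genes, mitochondrial UMIs of no more than 10%, a macrophage score (UMIs of C1qa, C1qb, C1qc, Adgre1 and Csf1r) of at least 2 and above a monocyte score (Ly6c2, Plac8, Vcan and Chil3), fewer than 3 UMIs of the E0771 tumor genes Cdh13, Pvt1, Esx1, Fmnl2 and Aebp1, and at least 2 UMIs of the 5 named genes, more than the UMIs of Mrc1, Stab1, Fcrls, Ccl8, Cbr2 and Gas6. In all, 94 barcodes met the rule, of 543 macrophages and 65298 barcodes with cells.

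The data were droplet 3' RNA counts from mammary tumors taken 21 days after E0771 breast cancer cells had been injected into the fourth mammary fat pad. The mice were females, aged 16 weeks at injection per the paper. WT libraries came from wild-type littermates of EC-AGO1-KO mice, which carry VE-Cadherin-Cre (Cdh5-cre) and AGO1 flox/flox on C57BL/6. The paper cites earlier work for a deletion limited to endothelial cells and not found in monocytes. Deletion in the macrophages described here could not be checked. Batch 1 held 1 WT and 1 EC-AGO1-KO library and batch 2 held 4 of each, with 2 of the 4 EC-AGO1-KO libraries of batch 2 (2+3 and 5+6) each pooling 2 tumors. The files held 8323896 to 10591577 UMIs a library. The batches stood apart in depth: the median barcode had 4049 (WT) and 3862 (EC-AGO1-KO) UMIs in batch 1 and 595.0 to 1142 in batch 2, where Actb alone took 8.77% to 17.0% of the UMIs, against 1.99% and 2.28% in batch 1. No pair of libraries shared more than 28 barcode sequences.

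Macrophages clear debris, present antigen and remodel matrix, and in tumors they range from inflammatory cells recently derived from blood monocytes to resident-type cells that carry scavenger receptors such as the mannose receptor Mrc1. Cells that take up much lipid switch on lipases, fatty acid carriers and lysosomal genes, and Mmp12 and Mmp13 (collagenase 3) give macrophages a means to cut elastin and collagen. MHC class II molecules, with the invariant chain Cd74, show peptides to helper T cells.

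To show the control regions of gene families that the comparisons below turn on, the 250 bases before the RefSeq start (GRCm38.p6, the build called mm10) of 3 MHC class II genes are printed first. Of 13 genes looked up, 10 had a window in the table. Both strands were searched for ATTGG (the inverted CCAAT letters), held by 33.8% of all 32851 windows of this length, and for AGCAAC (a core of the MHC class II X box), held by 12.2%. Matches are in capitals and did not overlap in these windows. H2-Aa lies at chr17:34287824-34288073 on the minus strand, H2-Eb1 at chr17:34305617-34305866 and H2-DMb1 at chr17:34152941-34153190 on the plus strand.
H2-Aa: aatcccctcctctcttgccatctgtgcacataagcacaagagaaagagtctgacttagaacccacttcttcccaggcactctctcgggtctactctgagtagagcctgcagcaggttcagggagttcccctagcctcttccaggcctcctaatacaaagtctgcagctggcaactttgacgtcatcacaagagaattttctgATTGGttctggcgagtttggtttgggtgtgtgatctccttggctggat
H2-Eb1: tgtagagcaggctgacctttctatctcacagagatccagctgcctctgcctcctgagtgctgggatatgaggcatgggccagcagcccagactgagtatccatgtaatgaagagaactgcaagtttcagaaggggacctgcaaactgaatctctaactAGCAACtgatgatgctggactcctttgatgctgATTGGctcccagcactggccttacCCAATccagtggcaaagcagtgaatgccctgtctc
H2-DMb1: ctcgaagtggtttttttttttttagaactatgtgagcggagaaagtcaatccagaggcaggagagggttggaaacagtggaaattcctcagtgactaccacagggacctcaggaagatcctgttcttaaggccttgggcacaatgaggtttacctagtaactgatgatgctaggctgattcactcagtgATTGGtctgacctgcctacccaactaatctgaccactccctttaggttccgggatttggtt

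ATTGG began 48 bases before the start of H2-Aa, 59 bases before that of H2-Eb1 and 61 bases before that of H2-DMb1, and H2-Eb1 alone of these 3 windows also held AGCAAC, 92 bases before the start, and a CCAAT on its own strand, 35 bases before it. The metalloproteinase genes Mmp12 and Mmp13, neighbors on chromosome 9, are shown for the AP-1 letters TGAGTCA (both strands), which 4.46% of all windows held. Mmp12 had 2 starts in the table, and the window printed, chr9:7347124-7347373, was picked because it held a match, 44 bases before its start. It lies inside the GENCODE span of the gene given below. The other window, from chr9:7344147, lies at the start of that span and held no such match. The share of 4.46% is per window and takes no account of this choice. Mmp13, at chr9:7272264-7272513, had the letters on the opposite strand (TGACTCA), 35 bases before its start. A match of letters is a description and no evidence of binding.
Mmp12: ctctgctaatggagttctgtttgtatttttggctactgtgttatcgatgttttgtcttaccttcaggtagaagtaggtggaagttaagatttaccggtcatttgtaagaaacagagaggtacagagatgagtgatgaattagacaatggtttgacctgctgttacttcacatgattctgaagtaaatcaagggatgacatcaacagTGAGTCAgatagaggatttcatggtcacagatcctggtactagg
Mmp13: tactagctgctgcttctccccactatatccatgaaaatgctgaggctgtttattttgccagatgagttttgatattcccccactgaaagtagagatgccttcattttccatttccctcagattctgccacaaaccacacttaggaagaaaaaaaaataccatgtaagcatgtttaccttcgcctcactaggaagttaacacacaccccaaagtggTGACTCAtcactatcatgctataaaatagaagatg

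Of the 94 members, 87 came from batch 1 and 7 from batch 2. In batch 1, 46 of 218 macrophages of the WT library were members (21.1%, exact 95% binomial interval 15.9% to 27.1%) and 41 of 216 of the EC-AGO1-KO library (19.0%, 14.0% to 24.9%), so that the intervals overlapped over most of their width. In batch 2 the WT libraries gave 1 of 10 (WT 1), 0 of 5 (WT 3), 0 of 4 (WT 4) and 4 of 15 macrophages (WT 5). The EC-AGO1-KO libraries of batch 2 gave 1 of 8 (KO 1), 1 of 34 (KO 2+3), 0 of 14 (KO 4) and 0 of 19 (KO 5+6). Where no member was found, the exact binomial interval reached up to 52.2% (WT 3), 60.2% (WT 4), 23.2% (KO 4) and 17.7% (KO 5+6), by counting error only. The interval of KO 2+3 ran from 0.0744% to 15.3%, so that those of KO 2+3 and KO 5+6 ended below the 19.0% of the batch 1 EC-AGO1-KO library, though above the lower end of its interval, while the other batch 2 intervals included it, as the plot of shares by library shows.

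**Figure D1:**
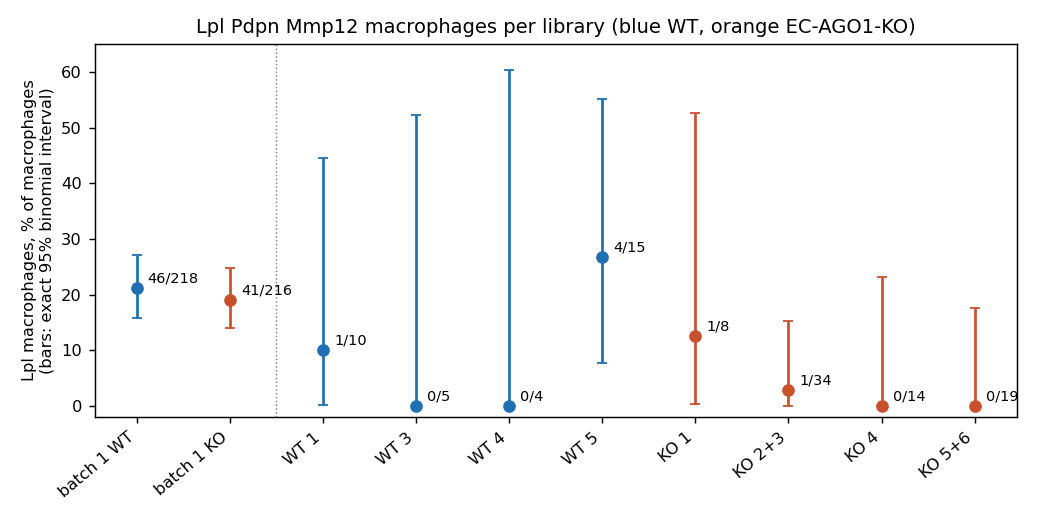
Share of macrophage barcodes that were Lpl Pdpn Mmp12 macrophages in each of the 10 libraries (y axis, percent), with members over macrophages written beside each point and exact 95% binomial intervals as bars; the dotted line parts batch 1 from batch 2. The 2 batch 1 libraries sit at 21.1% and 19.0% with short bars, and the batch 2 libraries range from 0% to 26.7% with wide ones.

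Over all libraries, members made up 11.6% ± 12.1 of WT macrophages (SD, n = 5), beside 6.89% ± 8.49 for EC-AGO1-KO tumors (SD, n = 5). The difference of -4.67 percentage points did not exceed what libraries of a group varied by (exact permutation test within batch, two-sided, p = 0.629; the smallest p this design allows is 0.0143). The differences given are weighted means of those within each batch, so a batch that lacks a group drops out. WT 5, with 4 members, carried most of the -4.67 points: without that library the WT mean was 7.775% and the difference -0.0706 points. Within batch 2 alone it was -5.31 points (exact permutation p = 0.714), and batch 1, with a single library per group, allows no test. As a share of all barcodes, members made up 3.85% of the WT and 4.24% of the EC-AGO1-KO library in batch 1 and at most 0.0644% of any batch 2 library. The group difference there was 0.0672 points (exact permutation p = 0.643) and turned to -0.0118 points in batch 2 alone. Leaving out either batch 1 library gives that same value, since batch 1 then drops out.

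The median member had 3485 UMIs in batch 1 and 528 in batch 2. When each barcode was thinned to 500 UMIs, 27 of 2034 barcodes in batch 1 and 3 of 41897 in batch 2 were members, and 417 and 18 were macrophages. Barcodes under 500 UMIs were left out first. That limit lay above the median of the macrophages in neither group in batch 2 (377 UMIs) and below that of batch 1 (2287.5 UMIs). The part of depth in the gap between the batches was therefore not tested. Among macrophages, the thinned share of members was 6.47% in batch 1 and 16.7% in batch 2, against 20.05% and 6.42% unthinned, so the order of the batches turned and no batch difference in that share is read from it. Thinning left out 69 and 59 barcodes in the batch 1 libraries and 1045 to 3947 in those of batch 2.

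The levels of the 5 genes are a description, since their UMIs chose the barcodes: high Lpl, Mmp12 and Pdpn follow from the rule, and Bhlhe41 was low even so. In batch 1, Lpl (chr8:68880491-68907448, GENCODE M21) stood at 707 CPM (UMIs of a gene per 1000000 UMIs) in WT members and 829 CPM in EC-AGO1-KO members, against 198 CPM in Mrc1 macrophages (the mirror of the rule), 61.6 CPM in the other macrophages and 9.93 CPM in all remaining barcodes. Mmp12 (chr9:7344381-7369499) stood at 1556 and 591 CPM in WT and EC-AGO1-KO members, and at 99.6 CPM in Mrc1 macrophages. Pdpn (chr4:143267431-143299564) stood at 194 and 252 CPM in members and at 96.5 CPM in Mrc1 macrophages. In barcodes of batch 1 gated as T cells, where these genes should be absent, 0 UMIs of Lpl, Mmp12 or Pdpn were counted, which allows up to 16.3 CPM of each.

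Bhlhe41 stood at 58.0 CPM in members of batch 1 (95% Poisson interval 33.8 to 92.9), no higher than the 70.0 CPM of the remaining, mostly tumor barcodes, and 380 CPM of the remaining barcodes of batch 2. Spp1 differed between the libraries. In WT it stood at 298 CPM in members, above the 141 CPM of the monocyte gate (at least 2 UMIs of Ly6c2, Plac8, Vcan and Chil3, and more of them than of the macrophage genes) and the 123 CPM of barcodes gated as T cells. In EC-AGO1-KO it stood at 151 CPM in members, below the 354 CPM of the monocyte gate and the 575 CPM of the T cell gate. The macrophage and tumor genes of the rule follow from it in the same way and are no check of the label: C1qb, a chain of complement C1q, stood at 3482 CPM in members and 72.7 CPM in the remaining barcodes, and the tumor genes Cdh13, Esx1 and Aebp1 were at 0 UMIs in all 87 members of batch 1, which allows up to 10.2 CPM of each. Pvt1 and Fmnl2, the other tumor genes, stood at 95.6 and 113 CPM in members, beside 3529 and 639 CPM. Cd68, a lysosomal protein of macrophages that the rule did not use, stood at 1225 CPM in WT and 1240.0 CPM in EC-AGO1-KO members, beside 502 and 665 CPM in the monocyte gate.

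**Figure D2:**
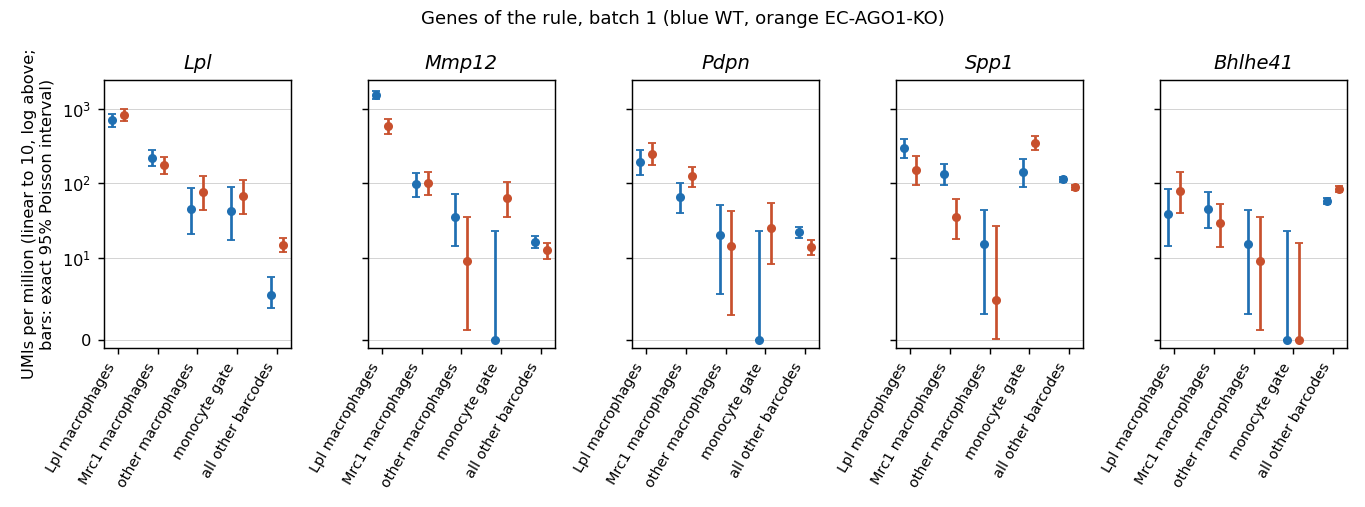
Levels of the 5 genes whose UMIs chose the members, in CPM (y axis, linear up to 10 and logarithmic above), in 5 sets of barcodes of batch 1; points are the WT (blue) and EC-AGO1-KO (orange) libraries and bars exact 95% Poisson intervals. Lpl, Mmp12 and Pdpn are highest in the members in both libraries, whereas Bhlhe41 and Spp1 are not.

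Genes of other lineages were counted in both libraries. Of 10 T cell genes, 0 UMIs were counted in WT and 1 in EC-AGO1-KO members, the 6 mast cell and basophil, 6 adipocyte and 7 alveolar macrophage genes (Siglecf and Marco among them) were at 0 in both libraries, and of 6 fibroblast genes 0 and 2 UMIs were counted. Of 7 neutrophil genes, 5 (S100a8, S100a9, Retnlg, Cxcr2 and Ly6g) were at 0 in both libraries, while Csf3r and Mmp8 gave all 10 UMIs in WT and all 8 in EC-AGO1-KO members. The cDC1 list gave 65 and 52 UMIs, of which 52 and 42 were Cadm1, with Xcr1 and Itgae at 0. The cDC2 list gave 25 and 27 UMIs, of which 20 and 20 were Ccr2, with Cd209a, Flt3 and Klrd1 at 0, and the mature dendritic cell list gave 7 and 12 UMIs, of which 6 and 12 were Relb. Of the osteoclast list, Acp5 (tartrate-resistant acid phosphatase, which many macrophages also make) gave 62 of 75 UMIs in WT and 43 of 58 in EC-AGO1-KO members, and Calcr and Oscar were at 0. Hemoglobin genes were the exception: they summed to 2192 CPM in WT and 28.8 CPM in EC-AGO1-KO members, and 1 WT barcode held 97.9% of the 143 Hbb-bs UMIs. Any UMI of a lymphocyte, neutrophil or dendritic cell list (leaving out Ccr2, Mgl2, Clec10a and Cadm1, which macrophages also express) was found in 58.7% and 53.7% of members, beside 51.8% and 60.5% of Mrc1 macrophages. Without those barcodes 47 genes in place of 161 were called in the comparison with Mrc1 macrophages below. No doublet caller was run.

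Members in batch 1 varied in how many of the 5 genes they showed. A UMI of Lpl was found in 59 of the 87, of Mmp12 in 44, of Pdpn in 23, of Spp1 in 19 and of Bhlhe41 in 12, and 28 carried both Lpl and Mmp12. By contrast 23 were members through Lpl alone, and 6 had none of Lpl, Mmp12 and Pdpn. The sum over the 5 genes ranged from 2 to 66 UMIs (median 4). At the edge of the rule, 20 members of batch 1 sat at exactly 2 UMIs and 18 macrophages just outside it at 1 UMI, and the Mmp13 level was 119 CPM in the former, 79.1 CPM in the latter and 716 CPM in the 55 members with at least 4 UMIs. Cd36 (a scavenger receptor for lipids) stood at 17.0, 39.6 and 266 CPM in these 3 sets. Likewise 19 members of batch 1 exceeded the resident-type score by 1 UMI, and 8 macrophages just outside tied with it. Barcodes with at least 3 tumor UMIs that otherwise met the rule, 19 in batch 1 and 2 in batch 2, were left out.

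The 35 WT and 19 EC-AGO1-KO members with a UMI of Mmp12 or Pdpn were set beside the 10 WT and 17 EC-AGO1-KO members with Lpl and neither of them, over genes picked after their values were seen and with no test, as a description of sets made from the UMIs that chose the members. Cxcl2, a neutrophil chemokine, stood at 3115 and 5296 CPM (WT and EC-AGO1-KO) in the first set and 378 and 1406 CPM in the second. Ccl6, a macrophage chemokine, stood at 746 and 825 CPM against 68.7 and 171 CPM. Fabp5, a fatty acid carrier, stood at 1102 and 792 CPM against 137 and 429 CPM. In each of these 3 genes both libraries of the first set lay above both of the second. The order was opposite for Ms4a7, a membrane protein of macrophages, at 2925 and 3200 CPM against 5430 and 4937 CPM, and for C1qc, at 2320 and 1765 CPM against 3230 and 3000.0 CPM. MHC class II genes were higher in the first set in both libraries: H2-Ab1 stood at 1508 and 1518 CPM against 447 and 806 CPM, and Cd74 at 5568 and 6582 CPM against 3643 and 3737 CPM. Ctsb, a lysosomal cathepsin, was close, at 4325 and 4058 CPM against 3608 and 4268 CPM.

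**Figure D3:**
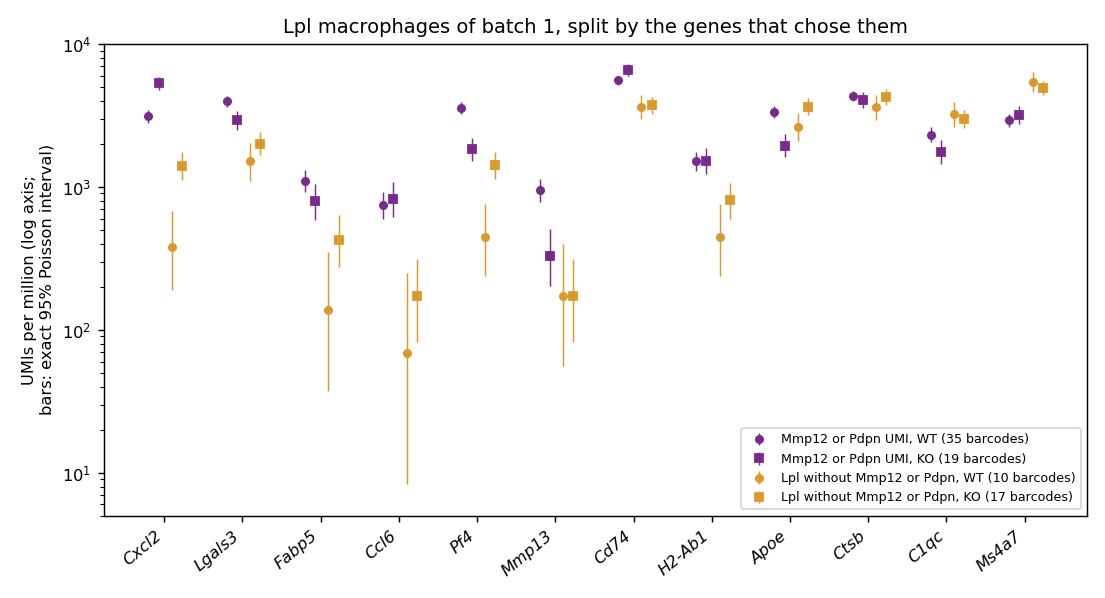
Levels of 12 genes, in CPM on a logarithmic y axis, in members of batch 1 with a UMI of Mmp12 or Pdpn (purple) and members with Lpl and neither (gold), for WT (circles) and EC-AGO1-KO (squares); bars are exact 95% Poisson intervals. Cxcl2, Fabp5 and Ccl6 are higher in the first set in both libraries, and Ms4a7 and C1qc are higher in the second.

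The first comparison set the members beside Mrc1 macrophages, that is, barcodes in which the resident-type score was at least 2 and exceeded the score of the 5 genes. Only the 2 libraries of batch 1 held at least 10 barcodes of both (46 and 85 in WT, 41 and 86 in EC-AGO1-KO). UMIs were summed per library and group, the 25 genes of the rule were left out, and edgeR's quasi-likelihood test was fitted with library as a block. The barcodes were assigned by genes measured in the same cells, and those genes had been picked with results of these libraries known. Its p-values therefore describe the difference between the assigned sets in 2 libraries and do not test whether the sets exist. With 1 residual degree of freedom, the test draws the spread of each gene largely from the other genes. A call therefore does not mean that the 2 libraries differed evenly, as Hilpda and Mmp13 below show. Of 3476 genes tested, 90 (2.59%) were higher and 71 (2.04%) lower in the members at an adjusted p under 0.05. Without TMM scaling the split was 54 higher and 90 lower, and DESeq2 called 13 of the 161, with 10 higher. Leaving Spp1 out of the rule gave 49 calls.

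MHC class II genes were higher in the members than in Mrc1 macrophages. In the order WT and EC-AGO1-KO, Cd74, the invariant chain, stood at 5051 and 5119 CPM in members and at 1854 and 2100.0 CPM in Mrc1 macrophages (log2 fold change 1.43 ± 0.07 SE, adjusted p = 1.13e-23, edgeR). H2-Aa (chr17:34282744-34287823) stood at 2328 and 2372 CPM against 749 and 912 CPM (1.57 ± 0.10 SE). H2-Eb1 (chr17:34305867-34316674) stood at 1576 and 1557 CPM against 434 and 610 CPM (1.66 ± 0.13 SE). In these genes both members' values lay above both values of the Mrc1 macrophages. The share of all tested genes that part in this way is not given, and all 161 called genes kept their direction in both libraries. The lack of overlap therefore does not set these genes apart. H2-Ab1, at 1284 and 1161 CPM against 438 and 467 CPM, and H2-DMb1, a chaperone of peptide loading at 207 and 296 CPM against 74.5 and 98.7 CPM, were higher too. The WT members with Lpl and neither Mmp12 nor Pdpn, at 447 CPM of H2-Ab1, were level with the Mrc1 macrophages in that gene. The EC-AGO1-KO members of that kind, at 806 CPM, lay above them. Of the 12 genes of the MHC class II and costimulation list 10 were tested, 5 were called higher and 0 lower, and their median log2 fold change was 1.27, beside 0.02 over all genes tested; DESeq2 called 4 of them. The costimulatory ligand Cd86 had a log2 fold change of -0.69 ± 0.26 SE (adjusted p = 0.135) and was not called. Of 14 genes of MHC class I presentation, 12 were tested and 0 called by edgeR or DESeq2, at a median of -0.13, and 0 of them had an unadjusted p under 0.05 in edgeR.

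Inflammatory genes moved in both directions. Cxcl2 (chr5:90903871-90905938) stood at 2509 and 3021 CPM in members and 1005 and 1185 CPM in Mrc1 macrophages (1.40 ± 0.09 SE, adjusted p = 6.86e-19). Tnf (tumor necrosis factor) rose by 1.15 ± 0.29 SE, Il1rn, the antagonist of the IL-1 receptor, by 0.97 ± 0.23 SE, and Il1b by 0.64 ± 0.17 SE. The monocyte-attracting chemokines were lower in the members. Ccl12 (chr11:82101845-82103400) stood at 331 and 404 CPM against 1313 and 1234 CPM (-1.73 ± 0.15 SE, adjusted p = 3.11e-14), Ccl2 differed by -0.96 ± 0.12 SE and Ccl7 by -1.31 ± 0.20 SE. Of the 20 genes of that list 16 were tested, 4 were called higher and 3 lower, with 2 called by DESeq2. Of 23 interferon response genes 20 were tested, 0 were called higher and 2 lower, Ccl5 (-1.72 ± 0.29 SE) and Cxcl10 (-1.04 ± 0.28 SE), the median was -0.05, and DESeq2 called 0.

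Of 28 genes of resident-type and M2-type macrophages outside the rule 14 were tested, 0 were higher and 7 lower in the members by edgeR, with a median of -0.66, and DESeq2 called 0. This is close to what the rule itself chose, since it required more UMIs of the 5 genes than of Mrc1, Stab1 and 4 similar genes. Folr2, a folate receptor of resident macrophages, stood at 58.3 and 36.0 CPM in members against 253 and 232 CPM, F13a1 (coagulation factor XIII) at 97.3 and 14.4 CPM against 266 and 334 CPM, and Selenop (a selenium carrier) at 512 and 512 CPM against 1070.0 and 970 CPM. Pf4 (platelet factor 4) was lower by -0.44 ± 0.08 SE, but this turned to 0.45 on barcodes thinned to 500 UMIs and to 0.08 without barcodes that held a UMI of another lineage. Apoe, which carries cholesterol out of macrophages, was lower at -0.54 ± 0.08 SE, and Hmox1, which degrades heme, at -1.44 ± 0.22 SE.

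Lipid genes were less uniform than the label might imply. Of 30 genes for lipid uptake, storage and efflux 17 were tested, of which 4 were higher (Hilpda, Npc2, Plin2 and Pparg) and 1 lower (Apoe), with a median of 0.17. Plin2, the coat of lipid droplets, stood at 402 and 505 CPM in members against 350.1 and 232 CPM (0.71 ± 0.21 SE, adjusted p = 0.0352), and Pparg, a nuclear receptor for fatty acids, at 117 and 123 CPM against 64.8 and 43.6 CPM. Hilpda, an inhibitor of the lipase that empties lipid droplets, rested on the WT library, at 227 CPM in WT and 36.0 CPM in EC-AGO1-KO members against 58.3 and 34.8 CPM. DESeq2 called none of the 17. Of 24 genes known from lipid-associated macrophages 21 were tested, and 5 were higher and 1 lower, with a median of 0.23, and DESeq2 called 1. Gpnmb, a lysosome-linked glycoprotein, stood at 77.8 and 216 CPM against 16.2 and 20.3 CPM (3.02 ± 0.45 SE), Lgals3, a galectin, at 3443 and 2379 CPM against 1750.0 and 1408 CPM (0.94 ± 0.09 SE), and the tetraspanin Cd9 at 162 and 86.5 CPM against 35.7 and 20.3 CPM. Trem2, a lipid receptor, differed by -0.09 ± 0.29 SE (adjusted p = 0.947) and was not called. Of 30 lysosome genes 23 were tested, 4 were higher (Psap, Npc2, Cd68 and Ctss) and 2 lower (Ctsd and Ctsc), the median was 0.01, and DESeq2 called 0.

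Among the largest rises were also Il7r, the receptor of interleukin-7, at 104 and 166 CPM in members against 0 and 20.3 CPM in Mrc1 macrophages, Malt1, a protease of NF-kB signaling, at 162 and 317 CPM against 38.9 and 34.8 CPM, and Ccr2, the receptor for Ccl2, at 130 and 144 CPM against 25.9 and 23.2 CPM. For these genes both members' values lay above both values of the Mrc1 macrophages, again with no share over all genes given. Anxa1, Bcl2a1d and Slfn4 completed the 15 largest rises, at log2 fold changes of 1.49, 1.41 and 1.52. The matrix list had 13 of 27 genes tested, 4 higher and 1 lower at a median of 0.04, and DESeq2 called 0. Mmp13, Plaur (the urokinase receptor), Adam8 and Cst3 were higher and Serpinb6a was lower. The Mmp13 rise rested on the WT library, at 778 and 216 CPM against 289 and 197 CPM, with log2 ratios of 1.43 in WT and 0.14 in EC-AGO1-KO. Among 18 oxidative stress and iron genes, Fth1, the heavy chain of ferritin, Slc7a11 and Prdx1 were higher and Hmox1 lower of 10 tested, and DESeq2 called 0. Prdx1 turned to -0.05 without barcodes that held a UMI of another lineage.

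**Figure D4:**
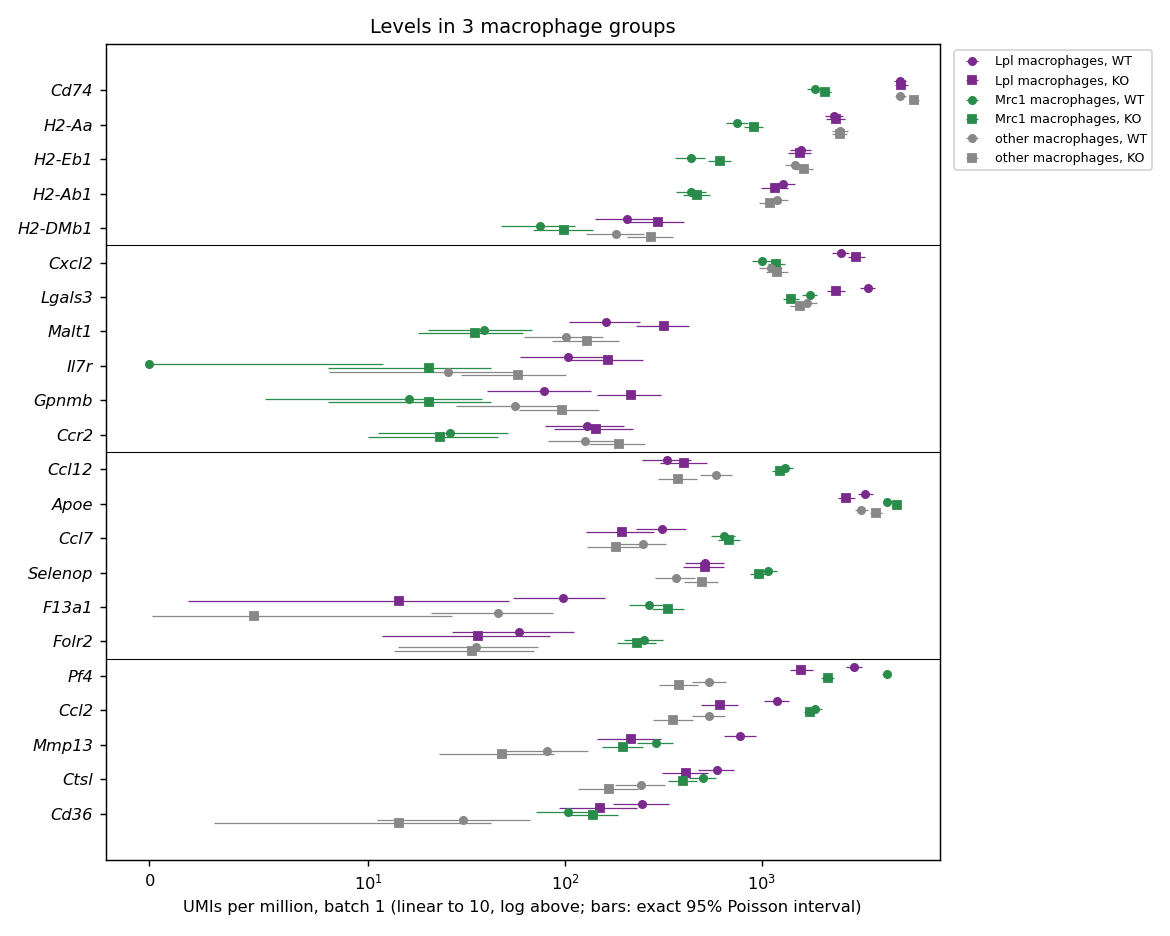
Levels of 22 genes, in CPM (x axis, linear up to 10 and logarithmic above), in Lpl Pdpn Mmp12 macrophages (purple), Mrc1 macrophages (green) and other macrophages (gray) of batch 1; circles are WT, squares EC-AGO1-KO and bars exact 95% Poisson intervals. The MHC class II genes of the top block are low in Mrc1 macrophages and alike in the other sets, while Cxcl2 and Lgals3 are highest in the members and Pf4, Mmp13 and Cd36 lowest in the other macrophages.

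Of 17 cell cycle genes 10 were tested against Mrc1 macrophages, 0 were higher and 5 lower in the members by edgeR (Mki67, H2afz, Top2a, Tubb5 and Stmn1), at a median of -0.77, and DESeq2 called 0; the histone gene Hist1h2ap (6.48 and 224 CPM against 509 and 714 CPM) was lower with them. At least 2 UMIs of dividing-cell genes were found in 8.70% and 12.2% of members against 27.1% and 26.7% of Mrc1 macrophages, at median depths of 3485 and 3667 UMIs, and in 9.20% and 3.37% of the other macrophages, against which 0 of 5 cell cycle genes tested were called by edgeR or DESeq2. Without these barcodes 65 genes were called in place of 161, and H2afz and Tubb5 changed sign, each to 0.02. The other genes among the 15 largest falls were Npl, Rnase4, Pclaf, Hist1h1b, Hist1h2ae, Cela1, Ch25h (cholesterol 25-hydroxylase), Wwp1 and Hdac9, at -4.03 to -1.83.

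The second comparison set the members beside the other macrophages of the same libraries, 87 in WT and 89 in EC-AGO1-KO, which met the macrophage limits and fell in neither group. It was added after the data had been seen, and the other macrophages were shallower, with a median of 2287.5 UMIs. Of 2783 genes tested, 11 (0.395%) were higher and 1 (0.0359%) lower in the members. DESeq2 called 6 of these 12 (Pf4, Cxcl2, Mmp13, Vim, Lgals3 and Ccl5), and without TMM scaling 3 higher and 1 lower genes were called. More genes were called with all genes of at least 1 UMI, a minimum score of 3 or no tumor UMI allowed, as given at the end.

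The members stood above the other macrophages in Mmp13 (778 and 216 CPM against 80.9 and 48.0 CPM, 2.93 ± 0.30 SE, adjusted p = 0.0017), Cd36 (246 and 151 CPM against 30.3 and 14.4 CPM, 3.15 ± 0.39 SE) and Pf4 (2937 and 1586 CPM against 541 and 379 CPM, 2.31 ± 0.15 SE). The Pf4 level was uneven among the members: over batch 1 it was 936 CPM at 2 UMIs of the 5 genes, 376 CPM at 3 and 3031 CPM at 4 or more. The 10 WT members with Lpl and neither Mmp12 nor Pdpn stood at 447 CPM, no higher than the other macrophages of that library. The 17 EC-AGO1-KO members of that kind stood at 1423 CPM, above the 379 CPM of the other macrophages of theirs. Cxcl2 stood above as well (1.29 ± 0.12 SE), here at 1108 and 1195 CPM in the other macrophages. Ccl6, Ctsl (cathepsin L), Fabp5, Vim, Ccl2, Lgals3 and Lyz2 were the remaining calls, at 0.78 to 1.45. In both libraries each of these genes was higher in the members. Ccl5, a chemokine for T cells, was the gene called lower, at 90.8 and 123 CPM against 860 and 677 CPM (-2.82 ± 0.24 SE).

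MHC class II was not among these differences. Cd74 stood at 5049 and 5945 CPM in the other macrophages (-0.08 ± 0.11 SE, adjusted p = 0.855), H2-Aa differed by -0.05 ± 0.11 SE and H2-Ab1 by 0.12 ± 0.13 SE, and 0 of the 10 list genes tested were called by edgeR or DESeq2 or had an unadjusted p under 0.05 in edgeR. On these values the Mrc1 macrophages held the low MHC class II level, and no difference between the members and the other macrophages was detected. Ccr2 likewise differed from the other macrophages by -0.16 ± 0.29 SE. Ccl2 took a middle place, at 1193 and 613 CPM in members, below Mrc1 macrophages (1861 and 1766 CPM) and above the other macrophages (536 and 355 CPM). Both comparisons share the members' libraries, so their calls are not independent.

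The third comparison set the members beside the monocyte gate (91 and 112 barcodes), which also held lymphocyte RNA: 12.1% and 24.1% of its barcodes had a UMI of a T or NK cell gene. Of 2683 genes tested, 172 (6.41%) were higher and 196 (7.31%) lower in the members, DESeq2 called 47, and without TMM scaling the split was 132 and 229. Lysosome genes were higher in 15 of 20 tested of that list and lower in 0, lipid-associated macrophage genes in 12 of 20 and 0, and interferon response genes higher in 0 and lower in 9 of 21. DESeq2 called 6, 5 and 4 genes of these 3 lists. Apoe stood at 3359 and 2689 CPM in members against 110 and 232 CPM, Acp5 at 402 and 310.0 CPM against 24.5 and 46.3 CPM, and Pltp, a phospholipid transfer protein, at 415 and 512 CPM against 24.5 and 75.8 CPM. Igf1, Zmynd15, Cadm1, Gatm, Vcam1, Abca1 (a cholesterol exporter), Dhrs3, Cd81, Clec4b1, Myo1e, Pf4 and Mmp13 completed the 15 largest rises, at 2.83 to 4.76. Among the largest falls, Satb1, Ifitm6, Ifitm1, Nkg7, Skap1, Il2rb, Hp, Ppp1r16b and Trbc2 were at 0 UMIs in the members of both libraries, which allows up to 19.4 and 21.6 CPM; of these Nkg7, Skap1, Il2rb and Trbc2 are lymphocyte genes. Ly6i, Plcb1, Gm9733, Ets1 and Ikzf2 had log2 fold changes of -4.60 to -3.97. Without the barcodes holding lymphocyte UMIs 236 genes were called, 218 of them among the 368.

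EC-AGO1-KO and WT members could be compared in batch 1 alone, with 1 library per genotype, so the differences have no replicate check and no test was made. Ago1 itself gave 1 UMI in WT and 2 in EC-AGO1-KO members, too few for a level. Since the paper describes the deletion as limited to endothelial cells, Ago1 in macrophages is no check of the genotype labels. Among 2209 genes with at least 20 UMIs over both, 4.89% were at least 2-fold higher and 3.76% at least 2-fold lower in the EC-AGO1-KO library. The median log2 ratio was 0.02. The intervals given are exact 95% Poisson intervals, cover counting error only, and belong to genes named after the data had been seen: the 10 largest ratios each way, and Mmp12 and Mmp13.

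The extremes in both directions were single barcodes. Hist1h2ap had 1 UMI in the WT and 31 in the EC-AGO1-KO library, where 1 barcode held 87.1% of them, and Hist1h2ae (95% in 1 barcode) was alike. The hemoglobin genes Hbb-bs, Hba-a1, Hba-a2 and Hbb-bt were higher in WT, with 97.4% to 100% of the WT UMIs in 1 barcode. Apart from these, Havcr2, which encodes the inhibitory receptor TIM-3, stood at 38.9 CPM in WT (14.3 to 84.7) and 173 CPM in EC-AGO1-KO members (111 to 257), in 5 and 14 barcodes. In Mrc1 macrophages it stood at 38.9 and 58.1 CPM. Asah1, the lysosomal acid ceramidase, stood at 51.9 and 202 CPM in members, Psmb10, an immunoproteasome subunit, at 32.4 and 144 CPM, and Agpat5 at 19.4 and 123 CPM. Ube2n, Erbin and 2310035C23Rik were 3.97-fold, 3.81-fold and 4.45-fold higher in the EC-AGO1-KO library. Fgfr2 was 4.04-fold higher, with 50% of its UMIs in 1 barcode, and lower in the EC-AGO1-KO library among Mrc1 macrophages (275 and 61.0 CPM).

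On the lower side, Hilpda stood at 227 CPM in WT (158 to 316) and 36.0 CPM in EC-AGO1-KO members (11.7 to 84.1), beside 58.3 and 34.8 CPM in Mrc1 macrophages. Hk2 (hexokinase 2) stood at 162 and 36.0 CPM, Dram2 at 149 and 21.6 CPM, Osbpl9 at 182 and 36.0 CPM and Ostc at 136 and 21.6 CPM. Areg (an EGF receptor ligand) was lower too, with 66.7% of its WT UMIs in 1 barcode. Of 10 matrix protease and inhibitor genes with at least 20 UMIs, 0 were 2-fold higher and 1, Mmp13, was 2-fold lower, and their median log2 ratio was 0.12. Mmp13 stood at 778 CPM (645 to 930.4) in WT and 216 CPM (146 to 309) in EC-AGO1-KO members. Mmp12, whose UMIs helped to choose the members, stood at 1556 CPM (1365 to 1766) and 591 CPM (470.2 to 734). The make-up of the members moved with this difference: 35 WT and 19 EC-AGO1-KO members held a UMI of Mmp12 or Pdpn, and within that set Mmp12 stood at 1988 and 1353 CPM and Mmp13 at 953 and 330 CPM. Mmp12 UMIs were found in 30 of 46 WT and 14 of 41 EC-AGO1-KO members, and Mmp13 UMIs in 21 and 8. In Mrc1 macrophages Mmp12 stood at 97.2 and 102 CPM and Mmp13 at 289 and 197 CPM; whether the genotype difference differs between the 2 groups was not tested. Lpl was nearer to even, at 1.17-fold, and Pdpn was 1.30-fold higher in the EC-AGO1-KO library.

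**Figure D5:**
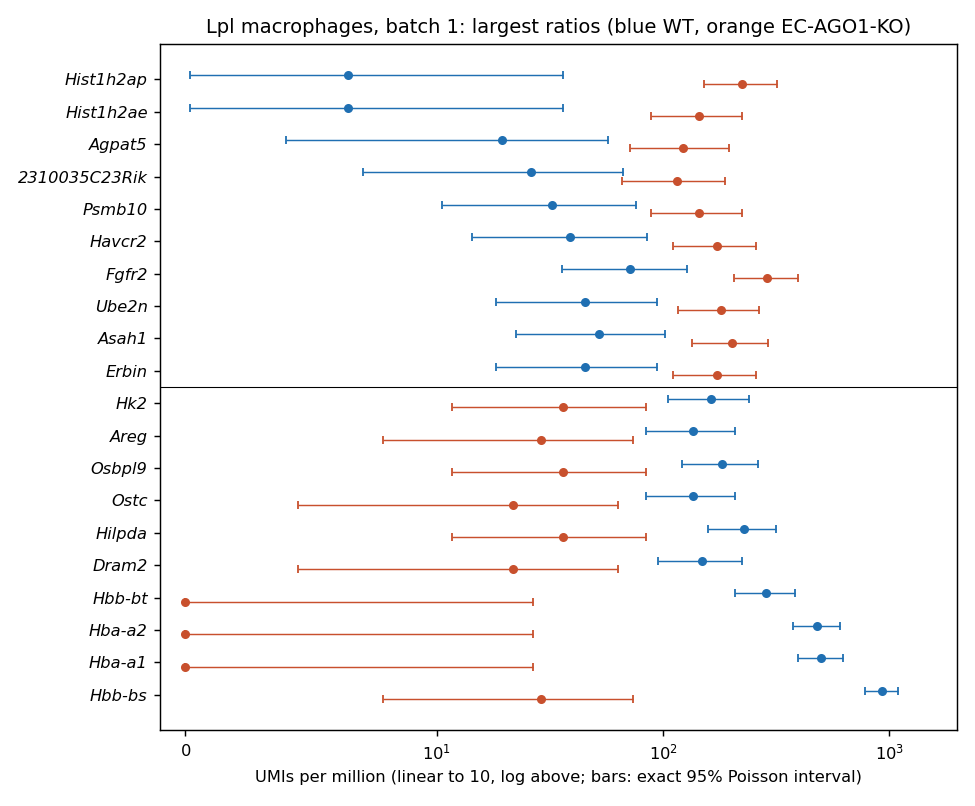
The 10 genes with the largest ratio of EC-AGO1-KO over WT (upper block) and of WT over EC-AGO1-KO (lower block) in Lpl Pdpn Mmp12 macrophages of batch 1, in CPM (x axis, linear up to 10 and logarithmic above), with exact 95% Poisson intervals; 1 library per genotype. The histone and hemoglobin genes at the ends rest on single barcodes.

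Most gene lists were near even between the genotypes. Of 9 MHC class II genes with at least 20 UMIs 0 differed 2-fold in either direction, and the same held for 20 lysosome and 10 oxidative stress and iron genes. Of 16 lipid genes 1 was higher (Lipa, lysosomal acid lipase, at 64.8 and 231 CPM) and 2 lower (Abca1, at 272 and 123 CPM, and Hilpda). Of 15 integrin and adhesion genes 3 were higher (Ezr, Itga5 and Itgav) and 0 lower. Among the genes the study used to describe macrophages, Cadm1, Zeb2, Cd53 and Cxcl10 differed by 1.15-fold or less. Mertk, a receptor for dying cells, stood at 97.3 and 43.3 CPM. Cxcl9, a chemokine for activated T cells, stood at 51.9 and 173 CPM with 83.3% of its EC-AGO1-KO UMIs in 1 barcode.

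The 7 members of batch 2 were too shallow to describe as cells. They held 320 to 747 UMIs, and their macrophage score was 2 in 5 of them and 4 in the others. Bhlhe41, which the tumor barcodes of that batch carry at 380 CPM, was found in 4 of the 7, Mmp12 in 5, Lpl in 2 and Pdpn in 2, and a tumor UMI in 5. A WT 5 barcode with 8 Pdpn UMIs held most of that gene's 9. In barcodes of at most 50 UMIs, taken as free RNA, Lpl stood at 10.7 to 24.2 CPM in the batch 2 libraries and at 11.4 and 15.04 CPM in those of batch 1. Bhlhe41 stood there at 89.6 to 265 CPM in batch 2 and 10.6 and 15.04 CPM in batch 1, and Pdpn at 36.8 to 71.5 CPM in batch 2 and 5.68 and 7.08 CPM in batch 1. Mmp12 stood at 9.31 to 15.8 CPM in batch 2, and in batch 1 at 28.4 CPM in WT, the highest of the 10 libraries, and 10.6 CPM in EC-AGO1-KO, the same order as its levels in the members of those libraries. No gene was compared within batch 2.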

How the data were processed

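For 10 libraries the deposited values were whole UMI counts of each gene in each barcode, made with Cell Ranger 7.1.0 against mm10 per the labels; the counts were neither normalized nor limited to cells. The members, gene lists and comparisons were chosen with earlier results of these data known.

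Barcodes were assigned by the rule above, and counts were summed per library and group where at least 10 barcodes were present. edgeR 4.0.16 (R 4.3.3; TMM scaling, filterByExpr, quasi-likelihood test, Benjamini-Hochberg adjustment over all genes tested, library as a block) was the main test and DESeq2 1.42.0 an alternative. The edgeR fits were tested on simulated data, and DESeq2 was not. Named genes were the 15 largest log2 fold changes in each direction among calls with a mean of at least 100 CPM in the group where the gene was higher, and list genes. Shares were compared by exact permutation within batch (scipy 1.17.1), and intervals are exact binomial or Poisson. A count of 0 was given the limit of 3 counts. Nothing in the labels says more of separate mice than the library numbers, so p-values refer to these libraries. Those of edgeR rest on a spread drawn in part from all genes. The planned test of EC-AGO1-KO against WT within the members, its interactions and a batch 2 fit were not made, since only 1 library per genotype held at least 10 members. Coordinates are from GENCODE M21 and promoters from RefSeq.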

Additional observations from a re-analysis of the deposited data

Results flagged for a closer look

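The batch 1 libraries stood far from the batch 2 libraries of their own genotype in 4 of 6 groups of 5 libraries examined for a sample apart from the rest. Each group of 5 held 1 library of batch 1 and 4 of batch 2, so any batch difference sets that library apart. The members are also counted among all macrophages, so the 4 results are not independent. The Lpl Pdpn Mmp12 macrophages made up 3.85% of barcodes in the WT library of batch 1, and the next WT library held 0.0644%. In the EC-AGO1-KO library of batch 1 they made up 4.24%, and the next held 0.0152%. All macrophages together made up 18.3% of barcodes in the batch 1 WT library, against 0.242% in the next, and 22.3% in the batch 1 EC-AGO1-KO library, against 0.516% in the next. With each barcode thinned to 500 UMIs, macrophages were 417 of 2034 barcodes in batch 1 and 18 of 41897 in batch 2. These counts leave out barcodes under 500 UMIs, and the batch 2 macrophages in neither group had a median of 377. Depth, sequencer and Actb content moved with the batch, and their part in these shares was not tested.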

How the results depend on the processing

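The difference in the share of members was not past the threshold in any setting run, but some could not have passed it: the smallest p was 0.5 with the replicate block, 0.214 with a minimum score of 3 or no tumor UMI allowed, 0.167 among macrophages and 0.0714 among all barcodes after thinning, and 0.0714 and 0.214 with a macrophage score of at least 3. Leaving out each library in turn, the EC-AGO1-KO minus WT difference ranged from -6.95 to -0.0706 points among macrophages and from -0.0118 to 0.0892 points among all barcodes. With either batch 1 library left out, the difference was that of batch 2 alone. With the replicate block, which pairs libraries by label number, it was 0.127 points among macrophages (exact permutation p = 1.0), a change of sign, and 0.128 points among all barcodes. The labels do not say that a number marks shared mice, and with 0 to 4 members per batch 2 library the pairing could not be checked. Among all barcodes the sign also changed with no tumor UMI allowed (-0.0649) and in batch 2 alone (-0.0118).

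Counts of calls moved more, and the causes were not tested. Against Mrc1 macrophages (161), DESeq2 called 13, Spp1 left out of the rule 49, no tumor UMI allowed 54, thinning 5 of 202 tested, leaving out dividing barcodes 65, leaving out barcodes with other-lineage UMIs 47, and admitting batch 2 libraries 0 of 15 tested, with 3 at an unadjusted p under 0.05. Against other macrophages (12), DESeq2 called 6, no TMM 4, genes with at least 1 UMI 57, a minimum score of 3 gave 69, and no tumor UMI allowed 40; admitting batch 2 libraries gave 14, all lower and 0 shared. Against the monocyte gate (368), DESeq2 called 47, no tumor UMI allowed 35, and leaving out lymphocyte UMIs 236. Of 73 named genes against Mrc1 macrophages, 73 kept their direction in each library, under DESeq2 and without TMM. Some settings gave values for fewer of the 73: 66 without dividing barcodes, where H2afz (0.0177) and Tubb5 (0.0153) turned, 57 without other-lineage barcodes, where Prdx1 (-0.0505) and Pf4 (0.0787) turned, 69 with no tumor UMI allowed, where 0 turned, 23 after thinning, where Pf4 (0.45) turned, and 1 with batch 2 libraries admitted. Leaving out a library left no residual degrees of freedom, so those values carry no test. Fits of EC-AGO1-KO against WT and both interactions were not run.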
